A study of Mus musculus with 49 samples.

Results

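The genes described here encode subunits of the BAF chromatin remodelling complex, the mammalian SWI/SNF complex, whose composition changes as stem cells become neurons. They were chosen by name: the 10 genes Actl6a, Actl6b, Dpf1, Dpf3, Phf10, Smarcc1, Smarcc2, Smarca4, Ss18 and Ss18l1, which are 10 of the 52550 gene rows of the count table. All 10 passed the filter on low counts in every comparison.

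RNA was sequenced from mouse ES-D3 cells, an established embryonic stem cell line, in the neural embryonic stem cell test, a culture assay for developmental neurotoxicity in which embryoid bodies are driven toward neural cells. The 49 libraries fell into 7 groups of 7: fluoxetine at 2 µM on day 7 and on day 13, venlafaxine at 90 µM on day 7 and on day 13, and controls without a drug on days 0, 7 and 13. Both drugs are antidepressants that block monoamine reuptake, and they were given from day 3 until harvest on day 7 or day 13. All groups shared the same cell line and the polyA-selected, strand-marking library preparation, and the labels name neither a solvent nor a batch. Nothing in them tells if samples within a group were differentiated separately, so p-values cover the variation among these samples, which may be technical. Libraries held 14059811 to 29225775 counts. Summed levels of 5 pluripotency markers were 4420 to 4630 CPM (counts scaled to library size) on day 0, 22.4 to 50.7 CPM in day 7 controls and 72.9 to 166 CPM in day 13 controls. Most of the later rise was Esrrb, with a mean of 9.275 CPM in day 7 controls and 55.62 CPM in day 13 controls. Summed levels of 7 markers of postmitotic neurons were 245 to 257 CPM on day 0, 1100 to 1550 CPM in day 7 controls and 4400 to 5980 CPM in day 13 controls. Most of the day 0 neuron sum was Stmn2, with a mean of 186.3 CPM, which was 145.3 CPM in day 7 controls. Each library is RNA of a whole culture, so fewer cells of a type and less RNA per cell cannot be told apart.

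BAF complexes use the ATPase Brg1, product of Smarca4, or its relative Brm to slide and evict nucleosomes. In mouse neural development, stem and progenitor cells carry the subunits BAF53a (Actl6a), BAF45a (Phf10) and Ss18, and neurons replace them with BAF53b (Actl6b), BAF45b and BAF45c (Dpf1 and Dpf3) and Crest (Ss18l1), while the scaffold subunit BAF155 (Smarcc1) of stem cells is joined or replaced by BAF170 (Smarcc2). The exchange at the BAF53 position is known to depend on the repressor Rest, which keeps neuronal genes and the genes of miR-9 and miR-124 silent, and on those microRNAs, which act on the 3′ UTR of Actl6a.

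Sequences related to this known circuit are shown first, because the levels of its parts are given further on. Sites of miR-124 were not searched. The strand of miR-9 known for Actl6a, miR-9-3p (also called miR-9*), and its partner strand miR-9-5p are printed from RefSeq on GRCm38.p6 with the seed (bases 2 to 8) in capitals; each is the same in the 3 hairpins Mir9-1, Mir9-2 and Mir9-3 on chromosomes 3, 13 and 7.
miR-9-3p: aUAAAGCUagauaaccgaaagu
miR-9-5p: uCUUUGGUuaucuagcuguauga

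The letters AGCTTTA, the complement of the miR-9-3p seed, were searched on the transcript strand of the longest annotated 3′ UTR of each gene (GENCODE vM21, GRCm38) and are held by 11.3% of 20983 such UTRs. They occur once in Actl6a and at 2 places in Smarcc1, and not in the 3′ UTRs of the other 8 genes. Among the other subunit genes described below, Smarca2, Smarcd2, Smarce1, Bcl11a and Bcl11b hold 1 match each and Arid2 holds 2. Among the regulators described below, Ctdsp2 holds 1. These include genes that rose over untreated differentiation, such as Smarca2, and genes that fell, such as Smarcd2. The Actl6a match lies at chr3:32726640-32726646 on the plus strand, in the 371-base 3′ UTR, and the Smarcc1 matches at chr9:110238613-110238619 and chr9:110239441-110239447, also on the plus strand, in a 3′ UTR of 2396 bases. The letters ACCAAAG, the complement of the miR-9-5p seed, are held by 12.2% of the UTRs. The Rest 3′ UTR holds 1 match, at chr5:77286176-77286182 on the plus strand, and those of Ptbp1, Ptbp2 and Ctdsp2 also hold 1 each. Among the other subunit genes, Smarcd2 and Arid1b hold 2 each, and Smarce1, Arid1a, Pbrm1, Bcl11a and Bicral hold 1 each. A match is a description of the letters, not evidence of binding. The sites in Actl6a, Smarcc1 and Rest are printed with their flanks, the match in capitals.
Actl6a: ctcaacgtctgtAGCTTTAgtacactc
Smarcc1 first: agcaaagagcacAGCTTTAcaacaagc
Smarcc1 second: tgtgtattttaaAGCTTTAtgtatgag
Rest: tttctgaggcaaACCAAAGgtatattt

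The promoter of Actl6b is shown because this gene was closest to silent on day 0. Its RefSeq window on GRCm38.p6, from 250 bases before to 50 after the start, lies at chr5:137553296-137553595 on the plus strand, and capitals mark matches to the left and right parts of the Rest binding element, CAGCACC and GGACAG, searched on both strands.
Actl6b: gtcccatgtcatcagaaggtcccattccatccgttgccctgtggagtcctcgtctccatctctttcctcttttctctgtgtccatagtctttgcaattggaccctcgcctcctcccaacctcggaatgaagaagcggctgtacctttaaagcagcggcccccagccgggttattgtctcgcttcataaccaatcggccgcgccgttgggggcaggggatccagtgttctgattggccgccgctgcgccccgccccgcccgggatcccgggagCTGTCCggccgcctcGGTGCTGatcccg

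Both matches read on the minus strand, the GGACAG part 22 to 27 bases and the CAGCACC part 37 to 43 bases after the start base. CAGCACC is held by 7.14% and GGACAG by 22.2% of 32851 promoter windows of this length. The element with both parts at 2 bases' distance, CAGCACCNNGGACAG, is held by 0.0365% of windows, and not by this one. Both parts at other distances, as in this window, were not counted over all windows, so no share is given for them. Of the 9 genes with a window in the table, Smarcc2 held GGACAG 1 time and the other 7 held neither part.

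Over untreated differentiation the neuronal subunit genes rose and their stem cell and progenitor counterparts fell. Actl6b, Dpf1, Dpf3, Smarcc2, Smarca4 and Ss18l1 rose and Actl6a, Phf10, Smarcc1 and Ss18 fell, both between day 0 and day 7 and between day 7 and day 13 (edgeR's quasi-likelihood test, Benjamini-Hochberg adjusted p under 0.05 over all genes tested). The whole transcriptome moved in these comparisons: of 16969 genes tested, 88.8% were called between day 7 and day 0, 83% between day 13 and day 7 and 93.4% between day 13 and day 0, so 10 of 10 subunit genes called is near the background. By direction, 45.3%, 42.1% and 48.3% of genes were higher and 43.4%, 40.9% and 45.1% lower in these comparisons, beside 6 higher and 4 lower of the 10. The description below therefore rests on sizes. The median log2 fold change of the 10 genes was 0.28 on day 7 against day 0, 0.61 on day 13 against day 7 and 1.41 on day 13 against day 0, beside medians over all genes tested of 0.03, 0.01 and 0.07.

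The actin-related position showed the widest range. Actl6b, the neuronal actin-related subunit (ENSMUSG00000029712.14, chromosome 5, 137553517 to 137569582), had 0 counts in 2 of the 7 day 0 libraries and 17 counts over all 7. Its level was 0 to 0.4834 CPM on day 0 (median 0.1196), 4.228 to 7.368 CPM in day 7 controls (median 6.371) and 60.28 to 86.56 CPM in day 13 controls (median 70.4). No 2 of these days overlapped. The mean CPM on day 13 was 478 times that of day 0 and 11.5 times that of day 7. The fitted log2 fold changes were 5.30 ± 0.278 for day 7 against day 0 (SE, n = 7 each, adjusted p = 9.06e-15) and 3.53 ± 0.111 for day 13 against day 7 (adjusted p = 9.21e-19); the value against day 0 depends on the prior count, since day 0 is so close to 0.

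Actl6a, the actin-related subunit of stem and progenitor cells (ENSMUSG00000027671.14, chromosome 3, 32706298 to 32726973), ran the other way. It stood at 239.6 to 272.2 CPM on day 0 (median 261.8), 141.2 to 148 CPM in day 7 controls (median 144.8) and 49.67 to 69.61 CPM in day 13 controls (median 61.19), with no overlap between days. The log2 fold change was -0.83 ± 0.0492 for day 7 against day 0 (adjusted p = 2.93e-14) and -1.26 ± 0.0508 for day 13 against day 7 (adjusted p = 2.24e-17). On day 7 Actl6a was already lower in every control library while Actl6b reached at most 7.368 CPM, and on day 13 both genes were present in every library. Actl6a overlaps the gene Mrpl47 on the opposite strand, which had 24.3% as many counts, and how the counting treated strand is not given in the labels; if it ignored strand, reads in the overlap cannot be told apart.

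To compare levels between genes, CPM was divided by the length of each gene's annotated exons, and each gene's share of the summed per-kilobase level of its position was taken. The Actl6b share was 0.0531% ± 0.0604 on day 0, 3.76% ± 0.597 in day 7 controls and 52.0% ± 5.6 in day 13 controls (SD, n = 7 each). With the length of the longest transcript in place of all exons, the day 13 share was 43.7%, so which of the pair was higher on day 13 depends on the length used.

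At the position of Ss18 the exchange, judged by share, was already well under way on day 7, while Ss18l1 had its larger log2 step after day 7. Ss18l1 (Crest, a calcium-responsive transactivator, ENSMUSG00000039086.9, chromosome 2, 180042509 to 180070201) stood at 7.675 to 10.54 CPM on day 0 (median 9.528), 29.42 to 34.64 CPM in day 7 controls (median 31.09) and 116.3 to 164.5 CPM in day 13 controls (median 135). Ss18 (ENSMUSG00000037013.15, chromosome 18, 14624198 to 14682914), its counterpart in stem cell complexes, stood at 189.3 to 206.2 CPM on day 0 (median 198.6), 94.31 to 101.7 CPM in day 7 controls (median 98.2) and 49.47 to 65.58 CPM in day 13 controls (median 55.22). Neither gene overlapped between days. On the log2 scale Ss18l1 rose by 1.75 ± 0.0818 on day 7 against day 0 and by 2.11 ± 0.0674 on day 13 against day 7, and Ss18 fell by 1.01 ± 0.0453 and by 0.78 ± 0.0463 over the same steps. The Ss18l1 share of the per-kilobase level was 9.31% ± 0.975 on day 0, 41.1% ± 1.49 in day 7 controls and 83.6% ± 3.08 in day 13 controls (SD, n = 7 each). With the longest transcript these shares were 4.33%, 23.6% and 69.3%, still with Ss18l1 as the lower gene on day 7 and the higher on day 13.

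At the scaffold position, Smarcc2 (BAF170, ENSMUSG00000025369.15, chromosome 10, 128459248 to 128490482) had its larger log2 step early. It stood at 39.73 to 45.51 CPM on day 0 (median 42.43), 197.7 to 221.2 CPM in day 7 controls (median 209.8) and 399.1 to 458.8 CPM in day 13 controls (median 435.3). The log2 fold change was 2.30 ± 0.0362 for day 7 against day 0 (adjusted p = 7.57e-26) and 1.07 ± 0.0331 for day 13 against day 7 (adjusted p = 9.91e-20). Smarcc1 (BAF155, ENSMUSG00000032481.16, chromosome 9, 110117708 to 110240178), which marks the complex of pluripotent cells, moved late and little: 417.9 to 448 CPM on day 0, 369.8 to 400.4 CPM in day 7 controls and 237.5 to 258.3 CPM in day 13 controls. Its log2 fold change was -0.16 ± 0.025 on day 7 against day 0 and -0.64 ± 0.0251 on day 13 against day 7. Smarcc1 overlaps Dhx30 on the opposite strand, which had 52.0% as many counts. The Smarcc2 share was 12.1% ± 0.496 on day 0, 43.1% ± 0.833 in day 7 controls and 71.3% ± 1.36 in day 13 controls (SD, n = 7 each).

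The fourth position holds proteins with paired PHD fingers that read histone tails, Phf10 and the 3 Dpf proteins. Its shares changed mostly after day 7, although Dpf3 had its larger log2 step on day 7 against day 0. Dpf1 (BAF45b, ENSMUSG00000030584.14, chromosome 7, 29303951 to 29318243) stood at 12.95 to 16.6 CPM on day 0 (median 15.06), 17.53 to 21.95 CPM in day 7 controls (median 19.69) and 76.98 to 91.54 CPM in day 13 controls (median 84.54). Its log2 fold change was 0.37 ± 0.0608 on day 7 against day 0 and 2.12 ± 0.0547 on day 13 against day 7. Dpf3 (BAF45c, also known for its role in heart and muscle, ENSMUSG00000021221.15, chromosome 12, 83213745 to 83487716) stood at 0.1893 to 0.5384 CPM on day 0, 3.583 to 4.961 CPM in day 7 controls and 29.13 to 38.94 CPM in day 13 controls, with log2 fold changes of 3.85 ± 0.183 and 2.97 ± 0.0944 for the same steps.

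Phf10 (BAF45a, ENSMUSG00000023883.13, chromosome 17, 14945009 to 14961273), which is known to keep neural progenitors dividing, fell least of the 4 genes that fell. It stood at 145.8 to 155.9 CPM on day 0, 130.6 to 149.8 CPM in day 7 controls and 98.21 to 109.1 CPM in day 13 controls, so days 0 and 7 overlapped. The log2 fold change was -0.11 ± 0.0316 on day 7 against day 0 (adjusted p = 0.00283) and -0.41 ± 0.0317 on day 13 against day 7 (adjusted p = 1.06e-11). Without the filter on low counts the first of these was -0.03 with an adjusted p of 0.5, so the early step depends on that filter. Leaving the filter out moved the log2 fold changes of this comparison by a median of 0.078 over genes. The reason was not tested. Phf10 overlaps the gene 1600012H06Rik on the opposite strand, which had 29.2% as many counts. In share, Phf10 went down and Dpf1 and Dpf3 went up without a full exchange. On days 0, 7 and 13 in controls Phf10 held 60.4%, 55% and 35.4% of the position. Dpf1 held 5.49%, 7% and 25.9% and Dpf3 0.14%, 2% and 13.3%. Dpf2, the widely expressed member, held 33.9%, 36% and 25.4%. With the longest transcript Phf10 held 50%, 44.9% and 28.6% and Dpf2 43.7%, 45.7% and 31.9%. Which of these 2 was higher on days 7 and 13 therefore depends on the length used.

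Smarca4 (Brg1, the ATPase shared by stem cell, progenitor and neuronal complexes, ENSMUSG00000032187.16, chromosome 9, 21616169 to 21704230) hardly moved beside its partners. It stood at 359.7 to 407.4 CPM on day 0, 418.6 to 464 CPM in day 7 controls and 457.2 to 514.6 CPM in day 13 controls, and days 7 and 13 overlapped. Its log2 fold change was 0.19 ± 0.0345 on day 7 against day 0 (adjusted p = 1.28e-05) and 0.15 ± 0.0344 on day 13 against day 7 (adjusted p = 0.00044).

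**Figure D1:**
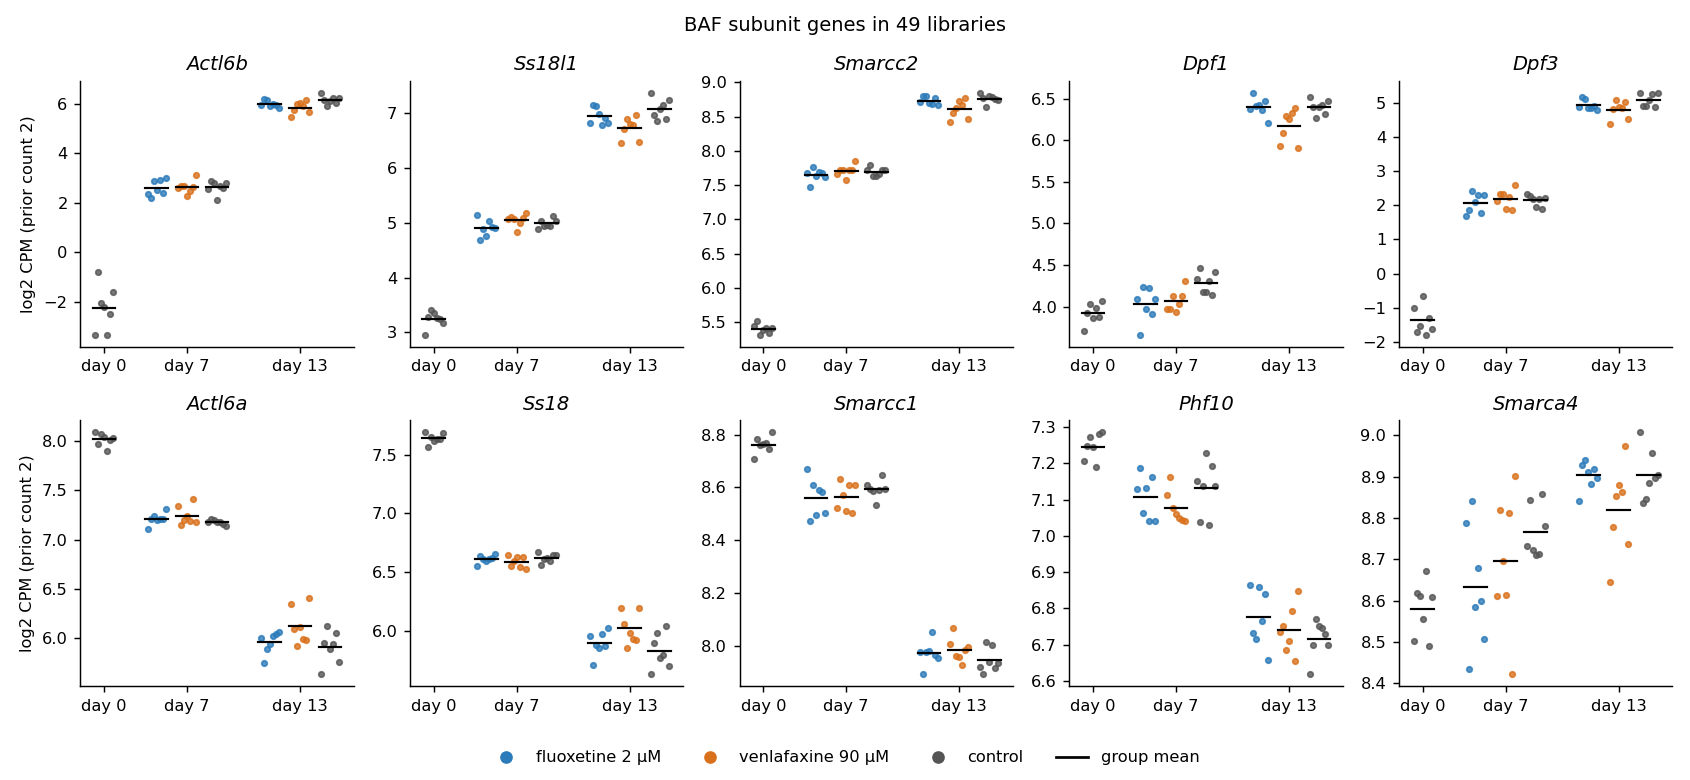
Level of each of the 10 subunit genes in all 49 libraries (log2 CPM with a prior count of 2; 1 dot per library, line at the group mean, vertical scales differ between panels), with fluoxetine, venlafaxine and control side by side on days 7 and 13. Days stand far apart for most genes, from a median of 0.1196 CPM on day 0 to 70.4 CPM in day 13 controls for Actl6b, while the groups of a day overlap for every gene.

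**Figure D2:**
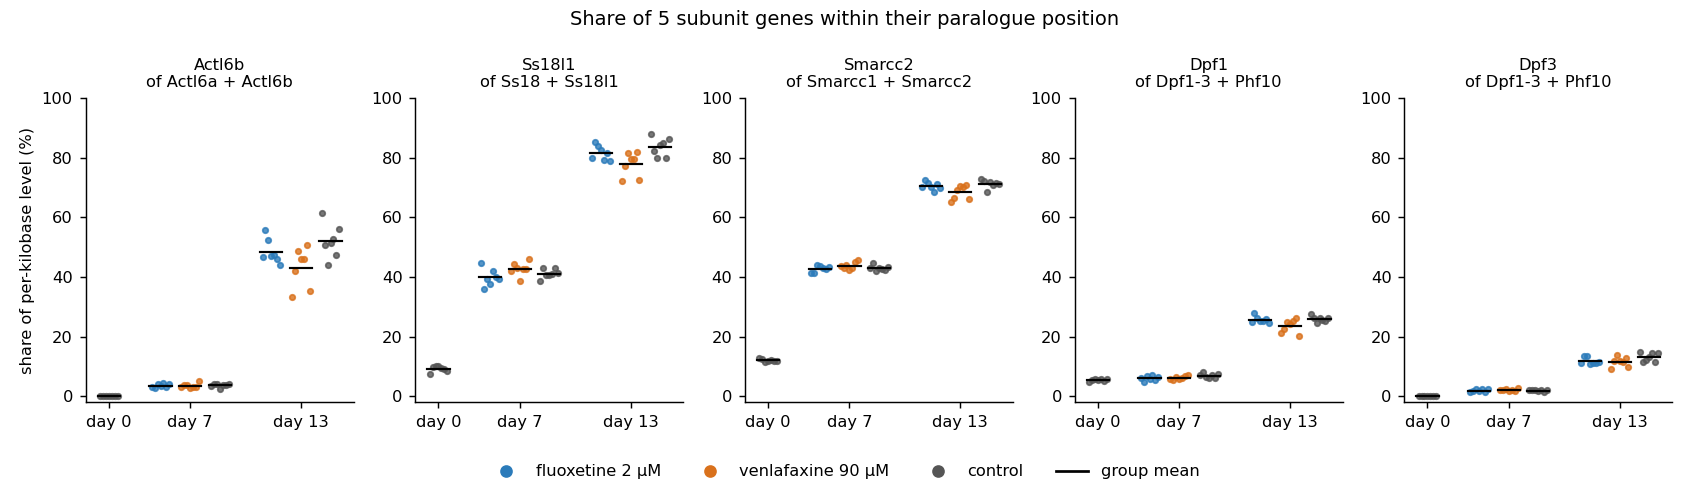
Share of Actl6b, Ss18l1, Smarcc2, Dpf1 and Dpf3 in the summed per-kilobase level of their position (percent, 1 dot per library, line at the group mean). In controls Ss18l1 reached a mean of 83.6% on day 13 and Smarcc2 71.3%, while Actl6b reached 52.0%.

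Judged by share, the positions thus differed in timing. Log2 steps group the genes otherwise: Actl6b, Dpf3 and Smarcc2 had the larger step before day 7, and Ss18l1 and Dpf1 after it. Ranking the 10 genes by per-kilobase level describes the days in another way. On day 0 the order was led by Actl6a, Smarca4 and Smarcc1, at 66.77, 59.11 and 55.43 CPM per kb, and neighbours among these overlapped in range. In day 7 controls Smarca4 led with 67.26, then Smarcc1 with 49.29, and Smarcc2 at 37.32 could not be separated from Actl6a at 37.28 CPM per kb. In day 13 controls Smarcc2 and Smarca4 led together, at 78.21 and 74.04 CPM per kb with overlapping ranges, and Smarcc1 at 31.46 overlapped Ss18l1 at 31.32. Further down that day, Phf10, Actl6b, Dpf1 and Actl6a ran from 21.39 to 15.52 CPM per kb, each overlapping the next. The order depends on the gene length used. With the longest transcript Actl6a led on day 0, at 119.2 to 135.4 CPM per kb, without overlap with Smarcc1 at 72.39 to 77.6. In day 7 controls Actl6a led at 72.07 CPM per kb beside 68.31 for Smarca4, with overlapping ranges. In day 13 controls Smarcc2 stood above Smarca4 without overlap. Actl6a, at 24.71 to 34.63 CPM per kb, then came before Actl6b, at 19.45 to 27.92 CPM per kb, with overlap.

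Likeness of profile was measured as the root mean square difference of mean-centred log2 CPM over the 49 libraries. Among the 10 genes the closest were Phf10 and Smarcc1, at 0.15, followed by Actl6a and Ss18, at 0.25. Among 14843 other genes with a mean of at least 1 CPM, the nearest to Actl6a were Thg1l (0.079), H2afz (0.082), Nudcd2 (0.085), Hnrnpf (0.089) and Ranbp1 (0.09). Those nearest to Actl6b were Slitrk1 (0.321), Gnao1 (0.342), B3gat1 (0.345), Fam155a (0.346) and Cadm3 (0.364). These distances describe the libraries and carry no test.

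The 21 other BAF and PBAF subunit genes were compared in the same way. On day 7 against day 0, 14 rose and 7 fell, with a median log2 fold change of 0.46; with 88.8% of all genes called, that count is near the background. The largest rises were in Smarca2 (Brm, the alternative ATPase, 3.47 ± 0.0922), Bcl7a (1.56 ± 0.0339), Bcl11a (1.39 ± 0.192), Smarce1 (1.38 ± 0.0355) and Bicra (1.36 ± 0.0604), and the largest falls in Bicral (-2.67 ± 0.0445), Smarcd2 (-0.94 ± 0.041) and Actb (-0.77 ± 0.0517). On day 13 against day 7, 9 rose and 10 fell, where 83% of all genes were called. Bcl11b (4.14 ± 0.131) and Bcl11a (3.28 ± 0.144), zinc finger subunits known from cortical neurons, rose most, then Smarcd3 (1.59 ± 0.0564), Bicral (1.44 ± 0.0444) and Bcl7c (1.26 ± 0.0351), and Smarcd2 fell most (-0.70 ± 0.0426). Smarcd3 and Smarcd2 are alternative members of 1 position and moved in opposite directions at both steps. Smarcd1, also of that position, stood above both, at 51.58, 46.3 and 42.47 CPM per kb on days 0, 7 and 13 in controls. Smarcd2 stood at 23.68, 12.25 and 7.477 and Smarcd3 at 1.729, 3.041 and 9.09 CPM per kb. Bicral moved down and then up. On day 13 against day 0 Smarcb1, a core subunit, changed by -0.16 ± 0.0253, and Brd7, a PBAF subunit, by 0.03 ± 0.0264 (adjusted p = 0.358).

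**Figure D3:**
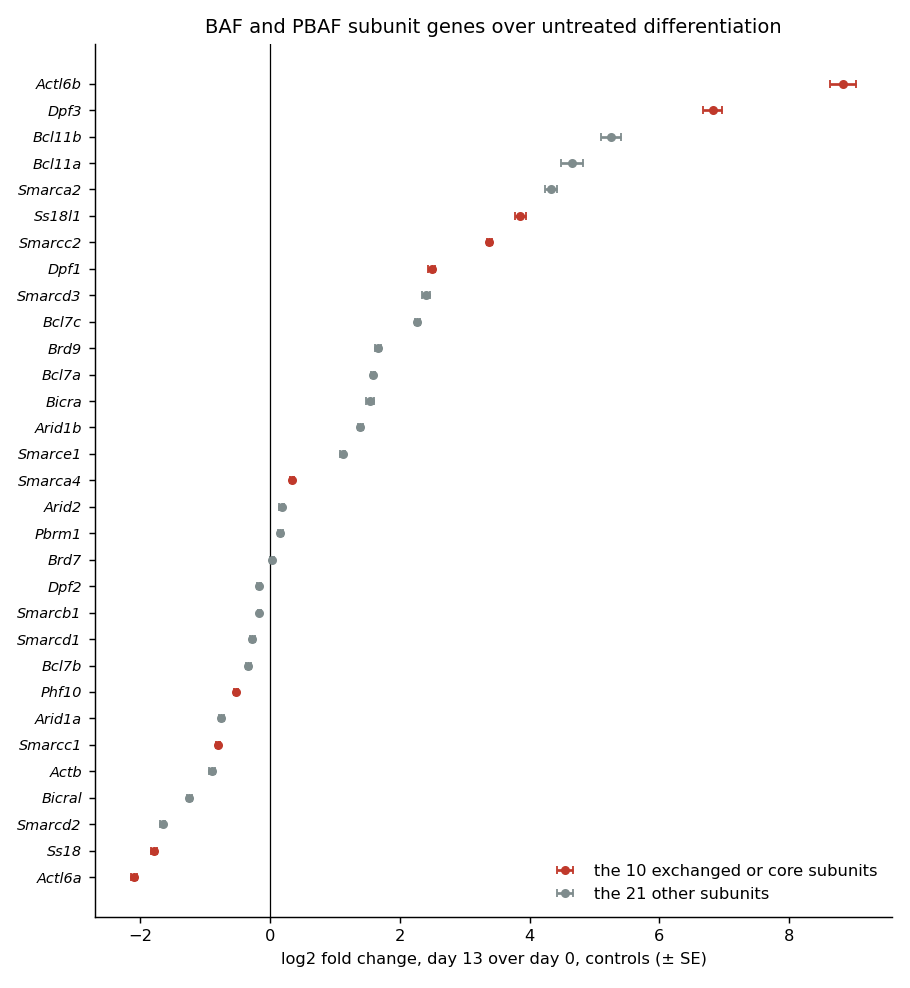
Log2 fold change of day 13 over day 0 in controls (points, with SE bars) for the 10 genes described here and the 21 other BAF and PBAF subunits, in order of size. Actl6b and Dpf3 stand at the top and Actl6a and Ss18 at the bottom, with Bcl11b, Bcl11a and Smarca2 among the largest rises of the other subunits.

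The regulators of the exchange were measured as RNA of Rest, its partners, the splicing regulators Ptbp1 and Ptbp2, and the host transcripts of the microRNAs. Mature microRNAs are not measured by polyA sequencing, and a host was assigned where the transcript's coordinates span the hairpin: Mir124-2hg spans Mir124a-2, Mir124a-1hg spans Mir124a-1, Mir9-3hg spans Mir9-3 and C130071C03Rik spans Mir9-2. Gm3764 spans Mir9-1 but is not in the list of regulators, and its level was not analysed here. Of the 12 genes of this list, 10 rose and 2 fell on day 7 against day 0, and 3 rose and 9 fell on day 13 against day 7, against the same backgrounds of 88.8% and 83%. Rest stood at 548.6 to 647.6 CPM on day 0, 75.73 to 83.33 CPM in day 7 controls and 45.33 to 71.58 CPM in day 13 controls. Its log2 fold change was -2.89 ± 0.0735 for day 7 against day 0 (adjusted p = 7.47e-21) and -0.60 ± 0.0723 for day 13 against day 7 (adjusted p = 5.94e-08). Both Rest and Actl6b had their larger log2 step on day 7 against day 0, although in CPM most of the gain of Actl6b lay after day 7.

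The 4 microRNA hosts all rose on day 7 against day 0, and each had a larger log2 step there than on day 13 against day 7. Mir124-2hg stood at 0 to 0.3835 CPM on day 0, 207 to 275.4 CPM in day 7 controls and 151.4 to 267.3 CPM in day 13 controls. C130071C03Rik stood at 0.1599 to 0.8287 CPM on day 0, 95.63 to 150.4 CPM in day 7 controls and 166.4 to 209 CPM in day 13 controls. Mir9-3hg and Mir124a-1hg rose at both steps, by 3.17 ± 0.174 and 2.23 ± 0.111 on the log2 scale for Mir9-3hg and by 1.51 ± 0.0846 and 1.09 ± 0.0746 for Mir124a-1hg. Ptbp1, a splicing repressor of non-neuronal cells, fell by 1.00 ± 0.0783 and then by 1.51 ± 0.0799, and its neural counterpart Ptbp2 rose by 3.29 ± 0.0696 and then fell by 0.21 ± 0.061.

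**Figure D4:**
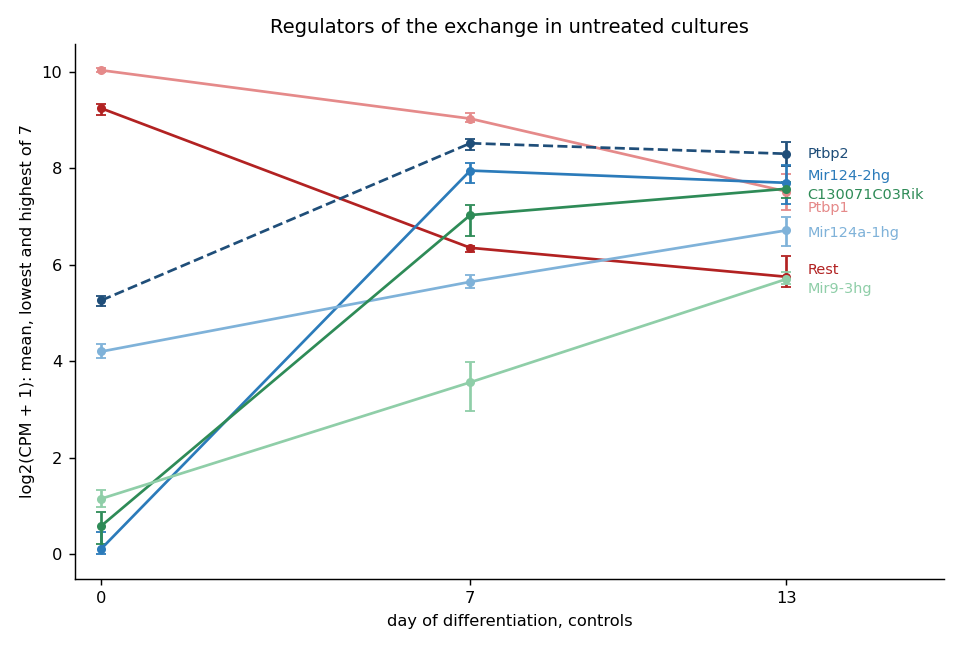
Rest, Ptbp1, Ptbp2 and 4 microRNA host transcripts in controls on days 0, 7 and 13, as log2(CPM + 1), with the mean of 7 libraries as a point and the lowest and highest library as bars. Rest dropped mainly before day 7, when Mir124-2hg and C130071C03Rik were already at 95.63 CPM or more in every library.

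The drugs were compared with the controls of the same day, 7 libraries against 7. Fluoxetine and venlafaxine share those controls, which also enter the comparisons of days, and their doses differ, so values stand side by side. On day 7 no subunit gene was called for either drug, where 0.0513% of 15601 genes were called for fluoxetine and 3.84% for venlafaxine. At an unadjusted p under 0.05 there was 1 of the 10 genes for each drug, beside 9.13% of all genes tested for fluoxetine and 17.3% for venlafaxine, so near or below the background, and DESeq2 also called 0 for each. That gene was Dpf1 both times. It stood at 12.55 to 18.7 CPM with fluoxetine (median 16.89) and 15.26 to 19.66 CPM with venlafaxine (median 16.27), against 17.53 to 21.95 CPM in day 7 controls (median 19.69). All 7 libraries of each drug lay below the control median, and the groups overlapped. The log2 fold change was -0.25 ± 0.0774 for fluoxetine (edgeR adjusted p = 0.305) and -0.22 ± 0.0781 for venlafaxine (adjusted p = 0.117). Over the 10 genes the median log2 fold change on day 7 was -0.04 for fluoxetine and -0.02 for venlafaxine, beside 0 for all genes tested in both. Levels of Actl6b on day 7 were 4.453 to 7.888 CPM with fluoxetine and 4.739 to 8.612 CPM with venlafaxine, against 4.228 to 7.368 CPM in controls, and its shares were 3.6% ± 0.686 and 3.62% ± 0.776, against 3.76% ± 0.597 (SD, n = 7 each).

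On day 13 fluoxetine again moved no subunit gene past the threshold. Of 16397 genes tested, 0.116% were called; among the 10 there were 0, also 0 at an unadjusted p under 0.05, where 14.1% of all genes stood, and 0 by DESeq2. The log2 fold changes of the 10 ran from -0.14 to 0.08. The largest in size were Actl6b at -0.14 ± 0.0873 (adjusted p = 0.487), Dpf3 at -0.14 ± 0.0999 (adjusted p = 0.594) and Ss18l1 at -0.13 ± 0.087 (adjusted p = 0.562). A p above the threshold does not show that levels were equal, and the standard errors give what size could have been missed.

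With venlafaxine on day 13, 6 of the 10 genes were called, 4 lower and 2 higher, where 22.9% of all genes tested were called, 11.3% lower and 11.6% higher. Ss18l1, Actl6b, Dpf1 and Smarcc2 fell, and Actl6a and Ss18 rose, by 0.14 to 0.34 on the log2 scale in size and each with overlapping groups. The median log2 fold change of the 10 genes was -0.11, beside -0.01 over all genes tested. Phf10, Smarcc1, Smarca4 and Dpf3 did not pass the test.

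Ss18l1 moved most. It stood at 87.61 to 124.8 CPM with venlafaxine (median 109.8), against 116.3 to 164.5 CPM in controls (median 135), and at 110.1 to 141.4 CPM with fluoxetine (median 120.2). All 7 venlafaxine libraries lay below the control median. The log2 fold change was -0.34 ± 0.0873 (adjusted p = 0.0148). It was the only one of the 6 called in each of 21 fits that left out 1 day 13 library, with log2 fold changes of -0.38 to -0.29 and adjusted p of 0.00466 to 0.0436. Of 8 other settings of the fit, 7 called Ss18l1, with a highest adjusted p of 0.06. Its call was lost with the replicate number as a block.

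Actl6b stood at 44.62 to 71.17 CPM with venlafaxine (median 59.84), against 60.28 to 86.56 CPM in controls (median 70.4), and at 57.69 to 74.05 CPM with fluoxetine (median 62.07). With venlafaxine 6 of 7 libraries were below the control median, and the log2 fold change was -0.29 ± 0.0875 (adjusted p = 0.0257). Actl6a stood at 60.61 to 84.82 CPM with venlafaxine (median 68.45), against 49.67 to 69.61 CPM in controls (median 61.19), and at 53.52 to 66.9 CPM with fluoxetine (median 64.18). For venlafaxine 6 of 7 libraries were above the control median, with a log2 fold change of 0.23 ± 0.0807 (adjusted p = 0.0479). The Actl6b share was 43.2% ± 6.62 with venlafaxine and 48.5% ± 4.09 with fluoxetine, against 52.0% ± 5.6 in controls (SD, n = 7 each).

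Dpf1 stood at 59.99 to 83.26 CPM with venlafaxine (median 75.98), against 76.98 to 91.54 CPM in controls (median 84.54), a log2 fold change of -0.22 ± 0.0666 (adjusted p = 0.0284). Smarcc2 stood at 341.3 to 435 CPM with venlafaxine (median 396.3), against 399.1 to 458.8 CPM in controls (median 435.3), a log2 fold change of -0.14 ± 0.0454 (adjusted p = 0.0303). Ss18 stood at 57.76 to 73.12 CPM with venlafaxine (median 63.13), against 49.47 to 65.58 CPM in controls (median 55.22), a log2 fold change of 0.20 ± 0.0671 (adjusted p = 0.0411). For these 3 genes all 7 venlafaxine libraries lay on the called side of the control median. Dpf3 had a log2 fold change of -0.27 ± 0.1 with an adjusted p of 0.0554, and Smarca4, Smarcc1 and Phf10 had -0.08 ± 0.0392, 0.05 ± 0.0303 and 0.03 ± 0.0376.

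**Figure D5:**
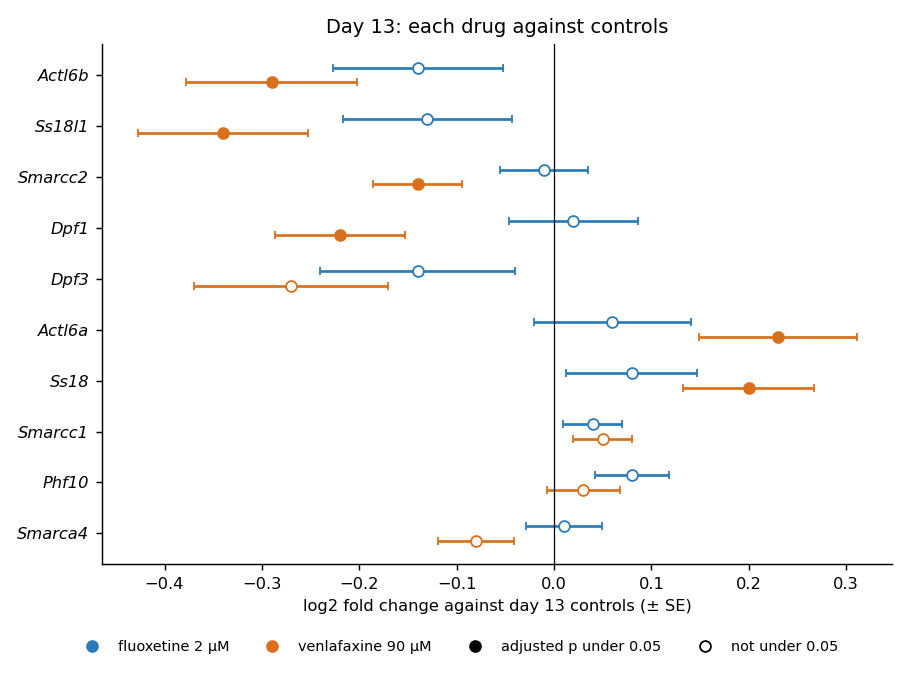
Log2 fold change of the 10 genes on day 13 for fluoxetine and for venlafaxine, each against the same 7 controls (points, with SE bars; filled where the adjusted p is under 0.05). Venlafaxine values run from -0.34 for Ss18l1 to 0.23 for Actl6a, and fluoxetine values lie between -0.14 and 0.08.

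The count of 6 rested on single libraries. It was 1, Ss18l1 alone, without control replicate 1, 6 or 8 or without venlafaxine replicate 1 or 8, and 2 without venlafaxine replicate 2. The share of all genes called moved as well, between 7.51% and 32.7% over the 21 fits. It was 7 at most, without control replicate 4 or 7 or venlafaxine replicate 3 or 7. Directions of the 6 genes were the same in all 21 fits. With only the venlafaxine and control groups in the fit the count was 1, and without the filter on low counts it was 3. Over all genes these fits called 2301 and 2022, beside 3753 with the filter and all 3 groups of the day.

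Within the venlafaxine group replicates 1 and 8 stood lowest in all 4 shares: 33.3% and 35.3% for Actl6b, 72.2% and 72.4% for Ss18l1, 65.2% and 66.2% for Smarcc2, and 21.3% and 20.3% for Dpf1. The other 5 libraries had Actl6b shares of 42.1% to 50.7%. Those replicates also had the lowest summed levels of the 7 neuron markers in their group, 3470 and 3680 CPM, and the highest of the 6 cycling markers, 1040 and 1030 CPM. In other lists replicates 1 and 8 did not stand together at 1 end. Their neural progenitor sums were 1470 and 1290 CPM (group range 1100 to 1470). Astrocyte sums were 582 and 500 CPM (466 to 622), and oligodendrocyte lineage sums 682 and 506 CPM (506 to 826). Day 13 controls spread too. Control replicates 1 and 8 had the highest Actl6b shares of their group, 61.3% and 56%. Their neuron marker sums were the highest, 5980 and 5600 CPM, and their cycling sums the lowest, 420 and 483 CPM. Control replicate 6 came next in Actl6b share, at 52.9%, and in neuron marker sum, at 5430 CPM. In Smarcc2 share control replicate 8, at 71.2%, lay inside the control range of 68.5% to 72.8%.

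Markers of cell state moved with venlafaxine on day 13 too, where 22.9% of all genes tested were called, 11.3% lower and 11.6% higher. Beside that share, 1 or 2 calls in such short lists say little. Of 7 markers of postmitotic neurons 6 were called lower (median log2 fold change -0.32), and their sum was 3470 to 4930 CPM with venlafaxine, against 4400 to 5980 CPM in controls. Among 6 cycling markers 4 were higher (median 0.47), with sums of 694 to 1040 CPM, against 420 to 780 CPM. For 5 astrocyte markers 4 were higher and 1 lower, with sums of 466 to 622 CPM, against 394 to 504 CPM. The lower one was Gfap, with a mean of 10.32 CPM, against 17.88 CPM in controls. Most of the astrocyte sum was Slc1a3, with a mean of 403.9 CPM, against 356.9 CPM. Of 5 oligodendrocyte lineage markers 4 were higher, with sums of 506 to 826 CPM, against 310 to 590 CPM, and 3 of 4 endothelial markers were higher, with sums of 41.8 to 76.2 CPM, against 17.1 to 66.5 CPM. Of 6 neural progenitor markers 2 were higher and 1 lower, and of 5 pluripotency markers 0 were called. The 6 muscle and mesoderm markers summed to 15.3 to 38.7 CPM with venlafaxine, against 4.63 to 16.5 CPM in controls, with 1 of 4 tested called higher. Endoderm markers summed to 78.4 to 110 CPM, against 64.2 to 91.5 CPM, with 2 of 5 tested higher, and microglia markers to 3.82 to 8.16 CPM, against 1.32 to 4.61 CPM, with the 1 tested higher. The part of these cell state and cell type differences in the change of the subunit genes was not tested.

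Other subunits and the regulators were also compared on day 13. Of the 21 other subunit genes 6 were lower with venlafaxine and 0 higher (median log2 fold change -0.04), where 22.9% of all genes were called, 11.3% lower and 11.6% higher: Bcl11a (-0.34 ± 0.113), Bcl11b (-0.32 ± 0.0874), Bicral (-0.20 ± 0.0508), Brd9 (-0.19 ± 0.057), Bcl7c (-0.17 ± 0.0546) and Smarca2 (-0.13 ± 0.0446). Among the 12 regulators Ptbp1 (0.38 ± 0.109), Rest (0.31 ± 0.0933) and Ctdsp1 (0.18 ± 0.0654), a phosphatase that acts with Rest, were higher, and Mir124-2hg (-0.36 ± 0.118) and Mir124a-1hg (-0.31 ± 0.104) were lower. Rest stood at 56.65 to 81.83 CPM with venlafaxine, against 45.33 to 71.58 CPM in controls. On day 7, where 3.84% of all genes were called, the calls in these 2 lists were 1 lower among the other subunits, Smarca2 at -0.23 ± 0.0574 without overlap of the groups, and 1 higher among the regulators, Mir124a-1hg at 0.26 ± 0.0704. For fluoxetine no gene of either list was called on day 7 or day 13.

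Set against each other, the groups of the 2 drugs differed in 0 of the 10 genes on day 7, where 0.147% of genes tested were called, and in 1 on day 13, where 12.1% were called, 5.14% higher and 6.97% lower. On day 7 there was 1 gene at an unadjusted p under 0.05, beside 8.38% of all genes, namely Ss18l1 at -0.15 ± 0.0589 for fluoxetine over venlafaxine (adjusted p = 0.456), and DESeq2 called 0. The gene on day 13 was Dpf1, at 73.88 to 94.58 CPM with fluoxetine (median 85.11), against 59.99 to 83.26 CPM with venlafaxine (median 75.98), a log2 fold change of 0.23 ± 0.0667 (adjusted p = 0.0304). It lost the call without fluoxetine replicate 2, 5 or 7 or venlafaxine replicate 1, 2 or 8. The doses were 2 µM and 90 µM, so compound and dose cannot be told apart.

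Whether a drug's effect differed between the days was tested as an interaction over the 42 libraries of days 7 and 13. For venlafaxine 2 of the 10 genes were called, 1 higher and 1 lower, where 12.4% of 16964 genes were, 7.53% higher and 4.89% lower. That count is near the background. Ss18l1 had an effect on day 13 that was lower than on day 7 by a log2 difference of -0.40 ± 0.111 (adjusted p = 0.0156), with log2 fold changes of -0.34 on day 13 and 0.06 on day 7. Ss18 had a difference of 0.23 ± 0.0723 (adjusted p = 0.0296), with log2 fold changes of 0.20 and -0.03 on those days; its call was lost without the filter on low counts (adjusted p = 0.0541). For fluoxetine 0 of the 10 were called, where 0.277% of genes were; 2 had an unadjusted p under 0.05, near the 13% of all genes tested, and DESeq2 called 0. These were Dpf1, at 0.28 ± 0.106 (adjusted p = 0.219), and Phf10, at 0.10 ± 0.0495 (adjusted p = 0.378).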

How the data were processed

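The authors deposited raw read counts per gene, 1 column per library. The tools named in the submitters' processing notes are featureCounts 1.6.1, STAR 2.6.0b, FastQC 0.11.5 and bcl2fastq 2.19.0.316, and the build is GRCm38.p6. Annotation release, strandedness of counting and treatment of multi-mapped reads: not given in the sources used here. Gene lengths and UTRs came from GENCODE vM21, which 52403 of 52550 rows matched; promoter windows and microRNAs came from RefSeq. Totals of 14059811 to 29225775 counts set the precision.

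Counts were tested in R 4.3.3 with edgeR 4.0.16 (quasi-likelihood F test with robust dispersions, TMM scaling, genes filtered by filterByExpr per group). A call is a Benjamini-Hochberg adjusted p under 0.05 over all genes tested. The 3 control groups, the 3 groups of a day, or the 42 libraries of days 7 and 13 were fitted together. SE is the log2 fold change over the square root of its F value. CPM used TMM factors over 49 libraries. Scripts were tested on simulated data. The 10 genes and all lists were chosen with earlier results of these data known. Named beyond the 10 are the nearest profiles of Actl6a and Actl6b, and called subunits and regulators with the largest log2 fold change, up to 5 each way; others are named for description, chosen after their values were seen. Alternatives included DESeq2 1.42.0 and each day 13 library left out in turn, the last chosen after seeing the data.

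Samples of different groups carry the same numbers in the labels. Correlations of the deviations of same-numbered samples from their group means ran from -0.464 to 0.242, and the numbers were not taken to pair samples. Differently numbered samples were not correlated, so a shared run or batch is not excluded.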

Additional observations from a re-analysis of the deposited data

Results flagged for a closer look

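The effect of venlafaxine differed between the days for Ss18l1 and for Ss18, by a test of the difference itself (edgeR interaction, 42 libraries). Ss18l1 differed by -0.40 on the log2 scale, day 13 over day 7, and Ss18 by 0.23. The Ss18 call was lost without the filter on low counts (adjusted p = 0.0541) and under the replicate block (adjusted p = 0.0579). Dixon's criterion was applied to 70 groups of values, of which chance alone would mark about 1 in 20. On the log2 scale it marked 0. In CPM it marked 1, Actl6b with venlafaxine on day 7, where replicate 8 stood at 8.612 CPM and the next library at 6.387 CPM. The criterion looks for a single library and cannot mark a pair such as venlafaxine replicates 1 and 8 on day 13.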

How the results depend on the processing

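The 10 calls of each comparison of days held under all planned settings, apart from Phf10 on day 7 against day 0 without the filter on low counts (-0.03). For venlafaxine against control on day 13, the 6 genes called became 3 without the filter and 1 with those groups alone. Calls over all genes went from 3753 to 2022 and 2301 under these settings. With 1 day 13 library left out, 1 to 7 of the 10 were called, where 7.51% to 32.7% of all genes were. For fluoxetine against venlafaxine on day 13, the 1 gene called became 2 by DESeq2, 4 with all 49 libraries in 1 fit, 0 without the library farthest from each group, and 0 to 2 with 1 library left out. For the venlafaxine effect between days 1 gene, Ss18l1, was called without the filter, in place of 2. Over all genes 1186 were called there, in place of 2107. The cause was not tested.

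With the replicate number as a block, these 3 counts were 0, 0 and 1, where 282, 176 and 1445 of all genes were called. Same-numbered samples correlated at -0.464 to 0.242. Differently numbered samples were not correlated beside them, so whether equal numbers mark a shared run or batch cannot be told.

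Directions turned for values at or near 0 that were not called. Without the farthest libraries Actl6b became 0.03 (fluoxetine) and 0.04 (venlafaxine) on day 7, Dpf1 and Smarcc1 became 0 for fluoxetine over venlafaxine on day 7, Dpf1 became 0 for fluoxetine on day 13, and Smarcc2 became -0.01 in the fluoxetine effect between days. Smarca4 with fluoxetine on day 13 became 0 with all libraries, and Dpf1 in the venlafaxine effect became 0 with DESeq2 and its size factors. With 1 library left out, on day 13, Smarcc2 (-0.03 to 0) and Dpf1 (-0.01 to 0.05) for fluoxetine and Smarcc1 (-0.02 to 0.01) for fluoxetine over venlafaxine changed sign or reached 0.

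Shares moved with the longest transcript as gene length. On days 0, 7 and 13 in controls, Ss18l1 had 4.33%, 23.6% and 69.3% and Smarcc2 11%, 40.4% and 69%; Actl6b had 2.71% and 43.7% and Dpf3 1.74% and 11.5% on days 7 and 13, and Dpf1 6.1% and 28.1% on days 0 and 13. With fluoxetine on days 7 and 13, Ss18l1 had 22.7% and 66.3%, Smarcc2 40.2% and 68.2% and Actl6b 2.59% and 40.2%, with Dpf1 at 27.8% and Dpf3 at 10.3% on day 13. With venlafaxine on those days, Ss18l1 had 24.8% and 60.8%, Smarcc2 41.2% and 66% and Actl6b 2.6% and 35.2%, with Dpf1 at 6.91% on day 7.

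Over all genes, calls for fluoxetine were 8 on day 7 (53 by DESeq2) and 19 on day 13 (425 by DESeq2, 575 with all libraries, 0 with the block). Calls for venlafaxine on day 13 were 3753, 2022 without the filter and 282 with the block. Depth limits Actl6b and Dpf3 on day 0, where Actl6b had 17 counts in all.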
